A study of Homo sapiens with 8 samples.

Results

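The cyclin-dependent kinase inhibitor genes are a set of 8 named genes: CDKN1A, CDKN1B, CDKN1C, CDKN2A, CDKN2B, CDKN2C, CDKN2D and CDKN3. They were taken by gene symbol, and 7 of the 8 had a row with that single symbol among the 22109 genes of the array table. CDKN2C had none and was not analysed here. Each of the 7 was read by 1 probe set, so no choice between rows was needed.

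Total RNA of MDA-MB-231 was measured on 8 microarrays; this established human line, from a pleural effusion, is a breast cancer model without hormone receptors or HER2 amplification. There were 3 untreated control arrays, and arrays of cells given a plant preparation, 3 labelled low and 2 labelled high, harvested at 24 h. The titles and the treatment protocol name the preparation as wild yam root (Dioscorea villosa) extract, dissolved in ethanol, at 15 and 30 µg/mL, whereas other fields give, for the low group, Boswellia serrata extract at 128 µg/mL and, for the high group, 46 µg/mL of 3-O-acetyl-β-boswellic acid. Both descriptions divide the arrays identically, so "low" and "high" are used as names of the groups. What the treated cells received is not settled by the labels. Below, "low dose" and "high dose" mean these groups only. By the other fields the groups differ in preparation and the low group has the larger amount. High against low is therefore not read as a dose response. The controls are labelled as having no treatment and no vehicle is given for them. All samples are of 1 cell line, and the labels do not say whether replicates were separate cultures, so p-values measure only the spread between these samples, which may be technical.

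Cyclin-dependent kinases drive the cell through its division cycle, and their inhibitors are the brakes. The Cip/Kip proteins p21 (CDKN1A), p27 (CDKN1B) and p57 (CDKN1C) bind assembled cyclin-kinase complexes, chiefly those of CDK2, while the INK4 proteins p16 (CDKN2A), p15 (CDKN2B), p18 (CDKN2C) and p19 (CDKN2D) bind CDK4 and CDK6 and keep them from their D-type cyclins. CDKN3 is of another kind, a phosphatase that removes the activating phosphate from CDK2 and whose messenger RNA is high in dividing cells. MDA-MB-231 cells are known to have lost CDKN2A.

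Measured values are log2 expression as deposited, and differences between groups are log2 differences with their standard error (SE). A gene was called when the adjusted p of limma's moderated test was under 0.05 after Benjamini-Hochberg adjustment over all 22109 genes. Without a background signal in the table, low values leave absence and weak expression undivided. Fewer cells expressing a gene and less RNA per cell cannot be told apart in these bulk samples. Control 3, low 3 and high 2 stood apart, with 75th percentiles of the log2 level over genes of 4.73, 4.54 and 4.54 in a range of 4.54 to 4.94. High 1 was also on the low side, at 4.80 with a median of 2.71, beside a median of 2.72 on control 3. The remaining arrays had 75th percentiles of 4.90 to 4.94. Members called at the low dose are given without control 3 too. Marker levels were read to check the line. VIM, the mesenchymal filament gene, read 8.68 to 9.10 on the 8 arrays. The oestrogen receptor gene ESR1 read 1.60 to 2.18 and E-cadherin (CDH1) 2.85 to 3.33. Other listed markers went the other way. SPARC, listed as mesenchymal, had means of 2.22 (control), 2.18 (low) and 1.88 (high). In the same groups the luminal gene EPCAM had means of 5.16, 4.93 and 4.57, and KRT8 3.92, 3.99 and 3.37. Over control, low and high arrays in turn, 6 mesenchymal markers summed to 45.71 to 49.66, 48.47 to 49.85 and 45.99 to 47.36, and 6 luminal and receptor genes to 18.32 to 18.96, 17.66 to 17.95 and 16.55 to 17.02. In the same order, 4 leukocyte markers summed to 11.80 to 12.11, 12.45 to 12.89 and 11.86 to 12.75, and 5 fibroblast markers to 10.77 to 12.01, 11.50 to 12.21 and 10.73 to 11.13. The 3 endothelial markers measured summed to 6.48 to 7.95, 6.86 to 7.16 and 6.60 to 7.02. Among the leukocyte markers CD68 had group means of 8.1, 8.25 and 8.02. Those of PTPRC, CD3E and ITGAM lay between 1.01 and 1.78. No marker was listed at 0, and the part of these levels in the results was not tested. COL1A1 was the single marker called, at the low dose (0.76 ± 0.16, adjusted p = 0.0262 by limma).

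At the low dose CDKN1A rose 4.0-fold and CDKN3 fell 3.14-fold, and none of the other 5 genes passed the test. Over all genes 1.19% were called higher and 1.81% lower at the low dose (264 and 400 genes), so 1 higher and 1 lower among 7 is a small count and is read here gene by gene. No member was called by limma at the high dose, although 2 genes (CDKN1A and CDKN1C) were higher and 1 (CDKN3) lower at an unadjusted p under 0.05. At that unadjusted threshold 671 of the 22109 genes were higher and 2526 lower at the high dose. The background of calls at the high dose was 0.425% higher and 0.389% lower. The plot of the 7 genes by array shows that the large movements are those of CDKN1A and CDKN3, in opposite directions.

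**Figure D1:**
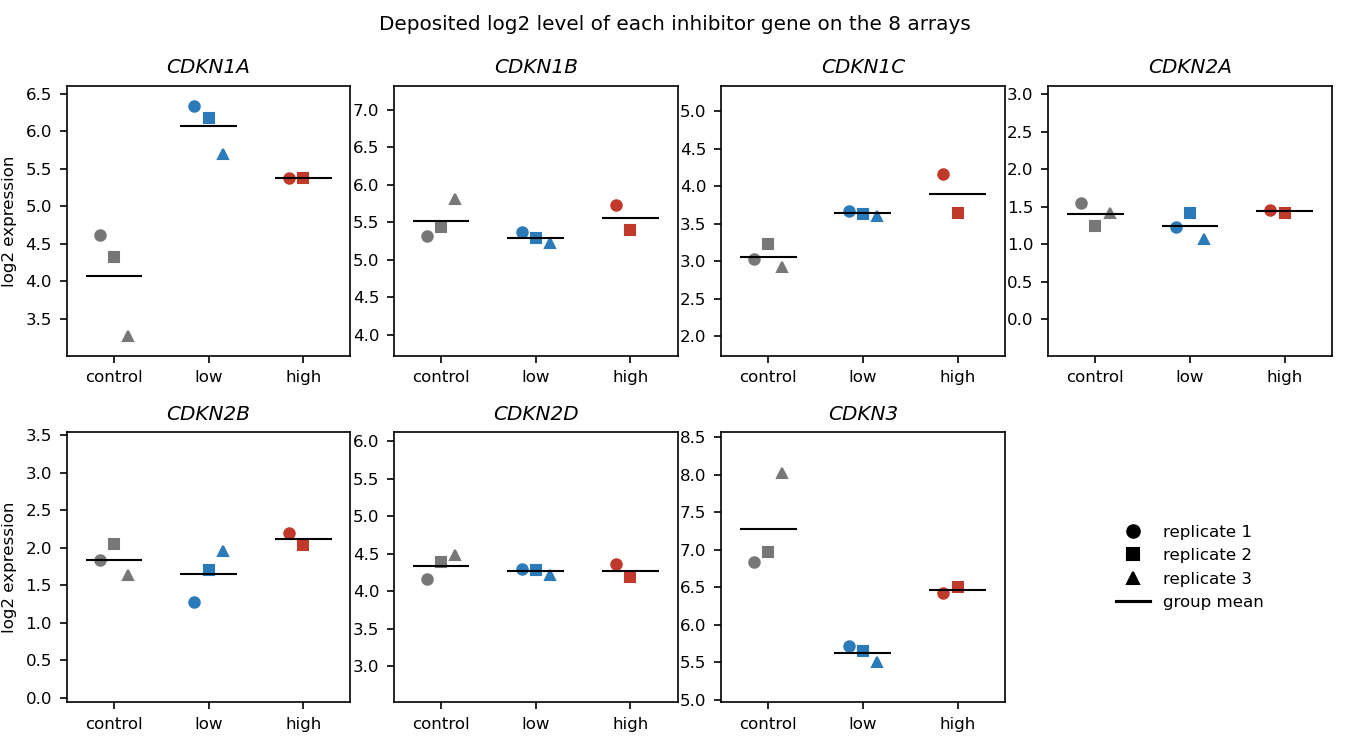
Deposited log2 level (vertical axis, the same span of log2 units in every panel) of each inhibitor gene on the 3 control, 3 low and 2 high arrays; symbols mark the replicate number and the line is the group mean. CDKN1A lies between 5.70 and 6.34 on low arrays and between 3.27 and 4.62 on control arrays, CDKN3 between 5.51 and 5.72 on low arrays and between 6.84 and 8.02 on control arrays.

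The promoters of CDKN1A and CDKN3 are shown because these were the genes called, in opposite directions. The sequences are from RefSeq (GRCh38.p14) and cover 250 bases before the annotated start site, 5′ to 3′ on the strand of the gene. That of CDKN1A is chr6:36678464-36678713 and that of CDKN3 is chr14:54396757-54397006, both on the plus strand. Capitals mark 3 kinds of motif on either strand. The GC box was searched as GGGCGG. The CCAAT box was searched by the 5 letters of its name. The CHR element, found in many genes of the mitotic phase, was searched as TTTGAA.
CDKN1A: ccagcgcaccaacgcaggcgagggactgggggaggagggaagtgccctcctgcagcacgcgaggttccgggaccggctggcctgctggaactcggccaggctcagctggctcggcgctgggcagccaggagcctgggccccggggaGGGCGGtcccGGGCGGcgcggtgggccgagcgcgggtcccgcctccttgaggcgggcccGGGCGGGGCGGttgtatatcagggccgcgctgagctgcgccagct
CDKN3: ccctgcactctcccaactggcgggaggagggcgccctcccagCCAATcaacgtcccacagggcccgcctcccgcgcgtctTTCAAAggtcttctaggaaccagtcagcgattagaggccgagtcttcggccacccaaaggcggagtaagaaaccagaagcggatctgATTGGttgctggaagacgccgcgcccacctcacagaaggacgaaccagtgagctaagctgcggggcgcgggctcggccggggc

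The CDKN1A window held 4 GC boxes, beginning 104, 94, 45 and 40 bases before the start site, of which the pair nearest the start overlap by a base. It held neither a CCAAT box nor a CHR element. The CDKN3 window held CCAAT boxes beginning 208 and 83 bases before the start, the one at 83 on the opposite strand, and a CHR element on the opposite strand at 170, with no GC box. Among 35116 such RefSeq windows, 42.6% held a GC box, 32.0% a CCAAT box and 13.3% a CHR element. The set of windows searched held every member but CDKN1C, CDKN2C included. GC boxes numbered 1 in the window of CDKN1B, 1 in a window of CDKN2A, 2 each for CDKN2B and CDKN2D and up to 5 in a window of CDKN2C. CCAAT boxes numbered 2 for CDKN1B and 1 each for CDKN2D and a window of CDKN2C. Of the members searched only CDKN3 had a CHR element. Neither printed window held the letters TGACTCA of the AP-1 site, present in 4.20% of windows. Neither held TGACGTCA, the CRE, present in 1.65%. The letters GCGTGGGCG, an EGR site, were in neither and in 0.720% of windows. Among the members searched a window of CDKN2C alone held them, beginning 53 bases before the start site. No member window searched held the AP-1 site or the CRE. These are matches of letters, not measured binding.

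Among the Cip/Kip genes, CDKN1A encodes p21, which halts the cycle after stress. Its log2 level was 4.62, 4.33 and 3.27 on control arrays 1 to 3, 6.34, 6.18 and 5.70 on low arrays 1 to 3 and 5.38 on both high arrays. All treated arrays lay above all controls, and the low arrays lay above the high arrays, so the 3 groups did not overlap. CDKN1A was higher at the low dose by 2.00 ± 0.30 (SE, 3 against 3 arrays, 95% interval 1.33 to 2.67, adjusted p = 0.00610 by limma), and the call held under all 24 alternative settings. Without control 3, the array with the lowest CDKN1A, the difference was 1.60 (adjusted p = 0.00202).

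The high arrays of CDKN1A differed from the controls by 1.31 ± 0.34 (2 against 3 arrays, interval 0.56 to 2.06), a 2.48-fold difference that was not called (adjusted p = 0.116 by limma). It was called under 10 of 24 alternative settings, among them 5 of 6 that rescaled the arrays. Over those 6 the difference was 1.38 to 1.51. Both replicate blocks called it as well, with 1.02 over 8 arrays (adjusted p = 0.0264) and 0.91 over the compared groups alone (adjusted p = 0.00136). Those fits called 5.55% and 12.1% of all genes, against 0.814% in the reported fit. Without control 3 the difference was 0.91, and it was then called (adjusted p = 0.0434). The high group was lower than the low group by 0.69 on average (-0.69 ± 0.34, interval -1.44 to 0.06, adjusted p = 0.600), which was not called. With the replicate number as a block over the compared groups alone it was called (-0.88, adjusted p = 0.00549 by limma), and with the block over 8 arrays it was -0.98 (adjusted p = 0.0528). The block over the compared groups called 7.48% of all genes, against 0.00452% in the reported fit. Both blocks pair the high arrays, which were not taken as paired.

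CDKN1C encodes p57, the imprinted member of the family. It read 3.03, 3.23 and 2.92 on control arrays, 3.67, 3.63 and 3.61 on low arrays and 4.16 and 3.64 on high arrays. Every treated array was above every control, with a gap of 0.38 between the low and control arrays and 0.40 between the high and control arrays, while the high and low arrays overlapped. The differences were 0.58 ± 0.17 for low against control (interval 0.20 to 0.96, adjusted p = 0.118) and 0.84 ± 0.19 for high against control (interval 0.42 to 1.26, adjusted p = 0.0798), neither of which was called by limma. These are 1.49-fold and 1.79-fold differences.

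The call of CDKN1C depended on how the arrays were scaled. It passed at the low dose under 3 of 23 settings and at the high dose under 9 of 23, including 5 of the 6 rescalings. Over those 6 the difference at the high dose was 0.91 to 1.03 (adjusted p between 0.0141 and 0.0602 by limma). Leaving out single arrays gave 0.58 (without high 1) to 1.10 (without high 2) for high against control, and none of those 8 fits called it. High minus low was 0.26 ± 0.19, with an interval from -0.16 to 0.69. The direct test does not separate the high and low groups for this gene (adjusted p = 0.720 by limma).

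CDKN1B encodes p27, which is controlled mainly through destruction of its protein. Its levels were 5.32, 5.44 and 5.81 on control arrays, 5.37, 5.29 and 5.22 on low arrays and 5.73 and 5.40 on high arrays. The low arrays overlapped the controls, both high arrays lay within the range of the controls, and both lay above the low arrays by a gap of 0.03. Low minus control was -0.23 ± 0.17 (interval -0.61 to 0.15) and high minus control 0.04 ± 0.19 (interval -0.39 to 0.47). The adjusted p-values were 0.646 and 0.949 by limma, and high minus low was 0.27 ± 0.19 (adjusted p = 0.716). The intervals leave room for a rise of at most 0.15 at the low dose and 0.47 at the high dose on the log2 scale.

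Among the INK4 genes, CDKN2D, which encodes p19, varied least of the 7 genes, with a range of 0.31 over the 8 arrays. It read 4.16, 4.39 and 4.48 on control arrays, 4.30, 4.29 and 4.22 on low arrays and 4.36 and 4.19 on high arrays. The groups overlapped in all 3 comparisons. Its differences were -0.08 ± 0.15 (low minus control, interval -0.41 to 0.25), -0.07 ± 0.17 (high minus control, interval -0.44 to 0.30) and 0.01 ± 0.17 (high minus low, interval -0.36 to 0.37). Each of these signs turned under at least 1 alternative, so no direction is given for CDKN2D.

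CDKN2A, the locus of p16 and of the unrelated protein ARF, read 1.55, 1.24 and 1.42 on control arrays, 1.23, 1.41 and 1.07 on low arrays and 1.45 and 1.42 on high arrays. The treated arrays overlapped the controls, and the high arrays lay above the low arrays by 0.01. Its neighbour CDKN2B, whose product p15 is known as a mediator of TGF-beta arrest, read 1.84, 2.05 and 1.63 on control arrays, 1.28, 1.70 and 1.96 on low arrays and 2.19 and 2.04 on high arrays. Its treated arrays overlapped the controls at both doses. Both genes were low on all 8 arrays, in a table whose values run from 0 to 12.1. Low minus control was -0.17 ± 0.16 for CDKN2A and -0.19 ± 0.20 for CDKN2B (adjusted p = 0.737 and 0.772 by limma). High minus control was 0.04 ± 0.18 and 0.28 ± 0.22 for the same genes (adjusted p = 0.949 and 0.606).

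The high arrays of CDKN2B lay above all low arrays, by a gap of 0.07, and high minus low was 0.46 ± 0.22 (interval -0.02 to 0.95, adjusted p = 0.585). The genes beside this locus gave no call either. Of 6 listed, 5 were measured, and 0 were called by limma or passed at an unadjusted p under 0.05 in any of the 3 comparisons. Among them MTAP, an enzyme gene of methionine salvage often lost together with CDKN2A, read between 1.32 and 1.98 over the 8 arrays.

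CDKN3, the phosphatase gene, read 6.84, 6.97 and 8.02 on control arrays, 5.72, 5.65 and 5.51 on low arrays and 6.43 and 6.50 on high arrays. All treated arrays lay below all controls, and all low arrays below both high arrays. Low minus control was -1.65 ± 0.27 (interval -2.24 to -1.07, adjusted p = 0.00779 by limma), and the call held under all 24 settings, with values between -1.87 and -1.22. Control 3 was the highest array for this gene, and without it the difference was -1.28 (adjusted p = 0.00202).

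High minus control was -0.81 ± 0.30 for CDKN3 (interval -1.47 to -0.16), which was not called (adjusted p = 0.243 by limma), and it was called under none of the 24 settings. Without control 3 it was -0.44 (adjusted p = 0.177). High minus low was 0.84 ± 0.30 (interval 0.18 to 1.49), a 1.79-fold higher level at the high dose that passed an unadjusted test but not the adjusted one (adjusted p = 0.483 by limma). Without control 3, which enters that contrast only through the shared spread, the same 0.84 was called (adjusted p = 0.0380). In that fit 0.787% of all genes were called for high against low.

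**Figure D2:**
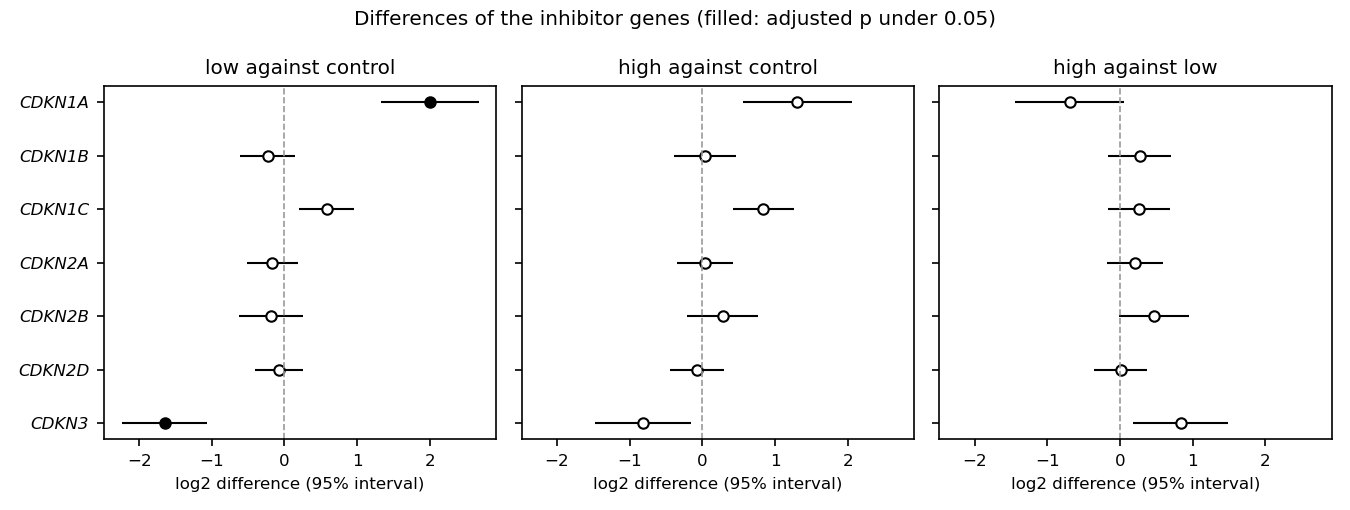
Log2 difference of each inhibitor gene (circle) with its 95% interval (line) for low against control, high against control and high against low, filled where the adjusted p over all genes is under 0.05. The filled circles are CDKN1A at 2.00 and CDKN3 at -1.65 in low against control; CDKN1C lies at 0.58 and 0.84 against control, unfilled.

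Over the 7 genes the median difference was -0.17 at the low dose and 0.04 at the high dose, beside -0.04 and -0.12 over all genes. Groups did not overlap for 3 of the 7 at the low dose (CDKN1A, CDKN1C and CDKN3) where 20.0% of all genes did not, and for the same 3 at the high dose where the share was 30.0%. Between high and low 5 of 7 did not overlap (CDKN1A, CDKN1B, CDKN2A, CDKN2B and CDKN3), beside 25.5% of all genes. The gap was only 0.01 for CDKN2A, 0.03 for CDKN1B and 0.07 for CDKN2B, against 0.32 for CDKN1A and 0.71 for CDKN3. CDKN2A and CDKN2B were also low on all arrays, so the count is not read as an excess. No member was called there by limma, and 1 (CDKN3) passed at an unadjusted p under 0.05. Of all 22109 genes 566 were higher and 1349 lower at that threshold. In that comparison 0.00452% of all genes were called higher (1 gene) and 0% lower. Both treated groups were compared with the same 3 control arrays, so their differences are not independent of each other.

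The split of calls over all genes depended on scaling and on single arrays. At the low dose 39.8% of the calls were higher, against 52.7% after quantile normalization of the tested genes, 51.8% after that of the whole table and 55.4% after subtraction of 75th percentiles. With the replicate number as a block there were 483 higher and 576 lower genes. Of 180 calls at the high dose 52.2% were higher, and 63.3% to 79.0% under the 6 rescalings. The share was lower in other fits, with 197 higher and 1031 lower genes under the replicate number as a block over 8 arrays, and at 19.6% with that block over the compared groups alone (526 and 2157), 23.4% with array weights and 25.3% without control 3. The median over all genes moved from -0.12 to values between -0.04 and 0.07 under those rescalings, so differences at the high dose are relative to a median of -0.12. Taken relative to it, the differences of CDKN1A and CDKN1C are larger, and that of CDKN3 smaller, than as given.

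**Figure D3:**
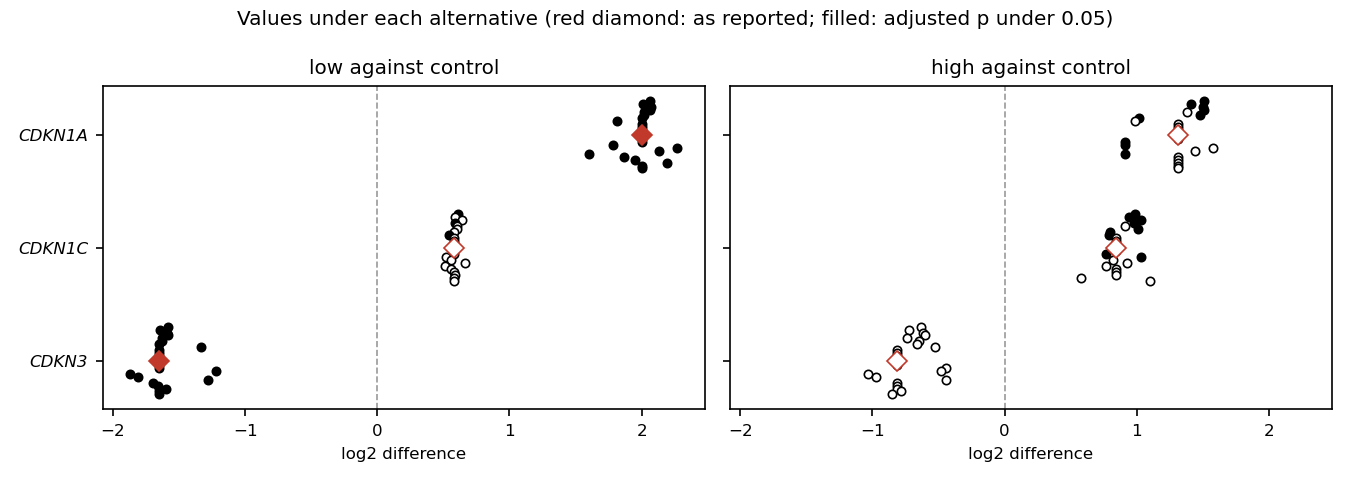
Log2 difference of CDKN1A, CDKN1C and CDKN3 under each alternative setting (circles) and as reported (red diamond), filled where the adjusted p is under 0.05. At the low dose CDKN1A stays between 1.60 and 2.27 and CDKN3 between -1.87 and -1.22, all filled; at the high dose filled and open symbols mix for CDKN1A (0.91 to 1.58) and CDKN1C (0.58 to 1.10), and CDKN3 (-1.03 to -0.44) has no filled one.

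The partners and regulators of the inhibitors were read from lists. Of 13 kinases and cyclins, the targets of the inhibitors, 6 fell at the low dose and none rose (median -0.49). They included CCNA2, the S and G2 phase cyclin (-1.70 ± 0.20, adjusted p = 0.00233), CCNE2, a cyclin partner of CDK2 (-1.29 ± 0.16, adjusted p = 0.00256), the mitotic kinase gene CDK1 (-1.84 ± 0.29, adjusted p = 0.00668) and the mitotic cyclin genes CCNB1 (-1.57 ± 0.24) and CCNB2 (-1.60 ± 0.28). On controls 1 to 3 CDK1 read 6.10, 6.10 and 7.30 and CCNB2 5.35, 5.47 and 6.63, highest on control 3. Over the 24 settings the low-dose difference of CDK1 was -2.04 to -1.34, always called. That of CCNB2 was -1.83 to -1.12, called in 23. CDK4 and CDK6, the kinases bound by INK4 proteins, were not called at the low dose, with -0.25 ± 0.19 and -0.06 ± 0.24. CDK6 differed by -0.70 ± 0.27 at the high dose, not called (adjusted p = 0.264). CCNE2 alone of the 13 was called at the high dose (-1.20 ± 0.18, adjusted p = 0.0163 by limma), where the list median was -0.47. None was called for high against low, and 5 passed at an unadjusted p under 0.05. CDK1 (1.39 ± 0.32), CCNB1 (1.16 ± 0.26), CCNB2 (1.13 ± 0.32) and CCNA2 (1.02 ± 0.22) were higher in the high group, and CDK6 lower (-0.64 ± 0.27). Over all 22109 genes 566 were higher and 1349 lower at that threshold.

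Among 16 measured genes that control turnover of the inhibitor proteins, 4 fell and 1 rose at the low dose (median -0.21). SKP2, the ligase subunit that recognizes p27, read 7.36, 7.39 and 6.47 on control arrays, 6.14, 5.92 and 5.56 on low arrays and 5.74 and 5.53 on high arrays. It fell at both doses, by 1.21 at the low dose (-1.21 ± 0.25, adjusted p = 0.0260) and by 1.44 at the high dose (-1.44 ± 0.28, adjusted p = 0.0444), beside the small differences of CDKN1B given above. PCNA, the replication clamp that p21 binds, fell at both doses as well (-0.82 ± 0.16 at the high dose, and by 1.0 ± 0.14 at the low dose). At the low dose DTL, a ligase adaptor for p21, fell (-1.09 ± 0.24), as did CDC20, an activator of the anaphase-promoting complex (-1.05 ± 0.25). PIM1, a kinase that phosphorylates p21 and p27, rose there (1.18 ± 0.17, adjusted p = 0.00468 by limma). At the high dose DTL, CDC20 and PIM1 differed the same way, by -1.13 ± 0.26, -0.93 ± 0.28 and 0.94 ± 0.19. None of them was called there (adjusted p = 0.0857, 0.163 and 0.0502 by limma).

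Of 22 measured transcription regulators of the inhibitor genes, 4 rose and 3 fell at the low dose (median 0.13). ATF3 (2.66 ± 0.30) and EGR1 (2.65 ± 0.35), stress and growth-factor response genes, rose, as did KLF6 (1.76 ± 0.24), a known activator of CDKN1A, and CEBPB (1.36 ± 0.22). On controls 1 to 3 ATF3 read 3.41, 3.56 and 2.21 and EGR1 5.76, 5.79 and 4.26, lowest on control 3. Over the 24 settings their low-dose differences were 2.24 to 2.91 and 2.14 to 2.91, always called. EZH2, the polycomb methyltransferase that represses the CDKN2A locus, fell (-1.10 ± 0.17, adjusted p = 0.00723). Of the 22, 3 rose at the high dose, EGR1 (3.32 ± 0.39), ATF3 (2.60 ± 0.34) and KLF6 (1.51 ± 0.27), and none fell. CEBPB (1.11 ± 0.24, adjusted p = 0.0699) and EZH2 (-0.61 ± 0.19, adjusted p = 0.188 by limma) kept their direction there, uncalled.

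Downstream, 2 of 11 pocket protein and E2F genes fell at each dose and none was called higher, with medians of -0.37 and -0.61. RBL1, the pocket protein p107, fell at the low dose (-1.07 ± 0.19). Its high-dose difference was nearly the same but was not called (-1.01 ± 0.21, adjusted p = 0.0574 by limma). E2F8, a repressor of the family, fell at the low (-1.24 ± 0.16) and high doses (-0.92 ± 0.18). The activator E2F2 fell at the high dose (-1.06 ± 0.21, adjusted p = 0.0490 by limma). At the low dose E2F2 differed by -0.60 ± 0.19, not called (adjusted p = 0.137 by limma). E2F7, a repressor like E2F8, differed the other way at the low dose (0.72 ± 0.19, adjusted p = 0.0671 by limma), and was called higher there under 10 of 24 settings, among them 5 of the 6 rescalings and the replicate block over 8 arrays (adjusted p = 0.0259). RB1, the retinoblastoma gene, was not called (-0.28 ± 0.19 and -0.41 ± 0.22). None of 4 measured imprinted neighbours of CDKN1C was called at either dose by limma. At the low dose 1190 of the 22109 genes were higher at an unadjusted p under 0.05. KCNQ1OT1, the RNA whose transcription silences CDKN1C on the paternal chromosome, was the one neighbour that passed at that threshold, at the low dose (0.70 ± 0.26, adjusted p = 0.228). It was called higher at the low dose under 3 of 23 settings, with the replicate block over 8 arrays (adjusted p = 0.0260 by limma), with array weights, and without control 3, low 3 and high 2 together. None of the 3 listed noncoding RNAs beside CDKN1A had a row.

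The counts of these lists at the high dose depended on the setting and on single arrays. With the replicate blocks 4 to 5 kinase and cyclin genes, 5 to 6 turnover genes and 5 to 6 E2F genes fell, and with array weights 4, 5 and 5, against 1, 2 and 2 as reported. With only the compared groups fitted no gene of these 3 lists was called, and with whole-table medians subtracted none fell in the turnover and E2F lists. Of 24 settings SKP2 was called lower at the high dose in 16, PCNA in 13, E2F8 in 14 and CCNE2 in 19, and E2F2 in 15 of 23. Without high 1, and likewise without high 2, no gene of the kinase, turnover, regulator and E2F lists was called. Without control 1, and likewise without control 2, none was called in the kinase, turnover and E2F lists. Without low 1, and likewise without low 2, none was called in the turnover and E2F lists. Without low 3 the turnover list had 1 rise and 2 falls. Without control 3 the falls numbered 4, 5, 2 and 5 in the kinase, turnover, regulator and E2F lists. At the low dose the kinase list kept 4 to 6 falls under all 24 settings and the regulators 4 to 6 rises. The turnover list had 1 fall without control 1, control 2, low 2 or low 3 and 2 without low 1, the regulators had 1 fall without low 1 or low 3, and the E2F list had 1 without control 1 or low 2.

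**Figure D4:**
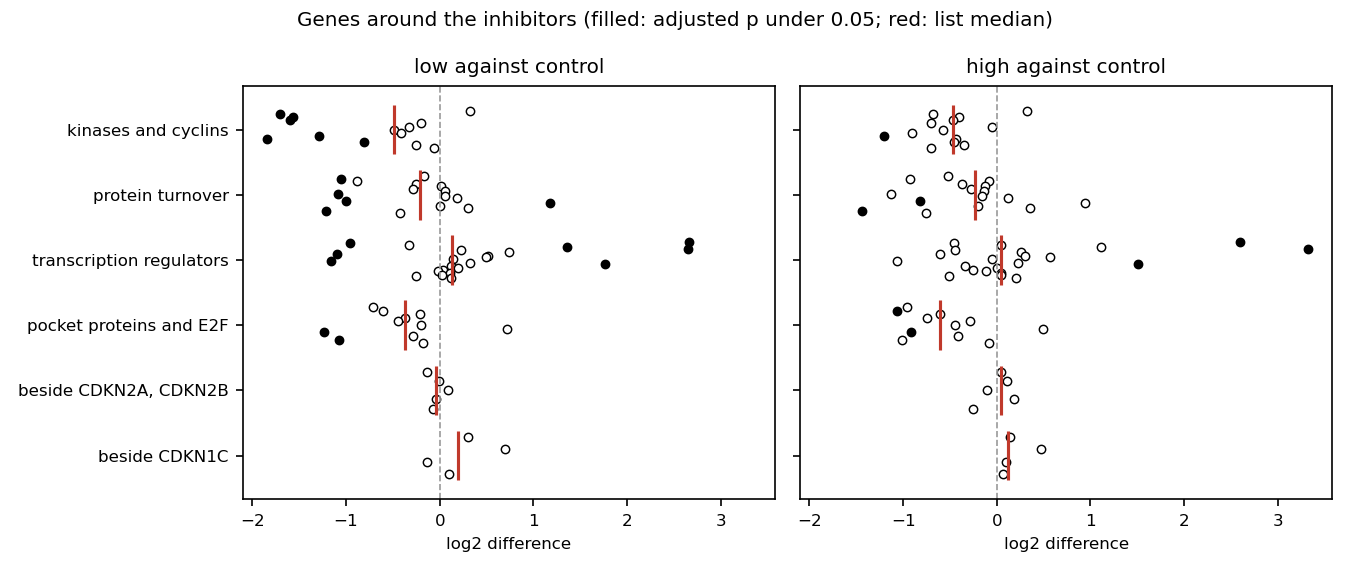
Log2 difference of each listed gene around the inhibitors (circles, filled where the adjusted p is under 0.05) for low against control and high against control, by list from top to bottom, with the list median as a red line. At the low dose the kinase and cyclin list has 6 filled circles below 0 and a median of -0.49; the genes beside CDKN2A, CDKN2B and CDKN1C have none.

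The patterns most like those of the called genes were found by Pearson correlation of log2 level over the 8 arrays, among 3691 genes with a range of at least 1; of genes with several rows the brightest row was used. The 8 points share groups and arrays, so these coefficients describe likeness and carry no test. Closest to CDKN1A were MAFG (r = 0.997), a small partner of stress transcription factors, IER3 (0.994), an immediate early gene with 10 rows, NEU1 (0.992), a lysosomal sialidase gene with 8 rows, and LDAF1 (0.991), a lipid droplet gene. MAFG read 4.87, 4.82 and 4.26 on control arrays, 5.88, 5.81 and 5.62 on low arrays and 5.38 on both high arrays, in the order of the groups seen for CDKN1A and with control 3 lowest. Most opposed to CDKN1A were the recombination gene RAD51C (-0.979), the mitotic kinase gene AURKA (-0.965), SPRY1 (-0.964) and CDKN3 itself (-0.959).

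Closest to CDKN3 were the chromatin protein gene HMGB2 (0.994), the kinetochore gene ZWILCH (0.991), ZFAND1 (0.991) and RAD51C (0.989). HMGB2 read 4.59, 4.64 and 5.78 on control arrays, 3.59, 3.62 and 3.45 on low arrays and 4.41 and 4.39 on high arrays, and like CDKN3 it was highest on control 3. Most opposed to CDKN3 were METRNL (-0.993), the polycomb cofactor gene JARID2 (-0.985), the cytokine gene IL6 (-0.981) and LDAF1 (-0.975). Control 3 thus held the lowest CDKN1A and the highest CDKN3 of the 8 arrays.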

How the data were processed

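Log2 expression values of 53617 probe sets on 8 arrays were deposited. The submitters' processing notes name the Transcriptome Analysis Console. How probes were summarized and arrays normalized is not given in the sources used here, and base 2 was taken from a range of 0 to 12.1. Rows were named through the platform annotation. Rows with 1 symbol (23558) were kept, and for genes with several the row with the highest mean, leaving 22109 genes. limma 3.58.1 in R 4.3.3 was fitted over all 8 arrays with 1 mean per group (5 residual and 6.00 prior degrees of freedom), tested on simulated data first. P-values were adjusted by Benjamini-Hochberg over all genes. The number of arrays limits the precision.

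Deviations from group means correlated at 0.103, 0.153 and 0.203 between same-numbered control and low arrays. These were taken as paired, from the values only, although control 1 correlated at 0.122 with low 2. The largest value between groups, 0.274, was of low 3 with high 2, which have unlike numbers. The pairing is therefore uncertain. The reported fit holds no term for this pairing, so its tests are unpaired. Only the replicate blocks among the alternatives include it. High arrays were not taken as paired: high 1 gave 0.094 with control 1 and 0.214 with low 1, high 2 gave -0.049 with control 2 and -0.177 with low 2. Deviations of 2 arrays from their mean mirror each other, so high 1 and high 2 do not give separate evidence.

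The members, lists and tests were chosen with earlier results of these data known. Named genes were all members, up to 5 called genes per list and comparison, and for each called member the 4 genes most alike and the 4 most opposed; CDK4, CDK6, RB1, E2F7, MTAP, KCNQ1OT1 and markers are named besides. Alternatives were 6 rescalings (3 of them added after seeing the data), 2 replicate blocks, 8 fits without 1 array and 8 other settings.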

Additional observations from a re-analysis of the deposited data

How the results depend on the processing

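The count of 2 members called at the low dose was 2 or 3 under the alternatives. At the high dose, where 0 were called, 2 were called after quantile normalization of the tested genes or of the whole table, with medians of the tested genes or either form of 75th percentile subtracted, with either replicate block, and without control 3, low 3 and high 2 together; 1 was called with array weights, 1 with the filter on dim genes, and 0 to 1 when single arrays were left out (1 without control 3). For high against low 2 (CDKN1A and CDKN3) were called with the replicate block over these groups alone, and 0 to 1 without single arrays. The block over the high and low groups alone called 7.48% of all genes. The blocks changed no other member's call. Whole-table rescalings were chosen after seeing the data.

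Signs turned only for differences near 0, none of them called. CDKN2D turned to 0.02 at the low dose without control 3, low 3 and high 2. Against control at the high dose it turned to 0.12, 0.03 and 0.12 (quantile, median and 75th percentile over tested genes), 0.11, 0.00 and 0.10 (the same over the whole table), 0.08 without those 3 arrays and 0.01 without high 2. High against low it turned to -0.01 (array weights), -0.02 (block over these groups), -0.02 (without low 3) and -0.08 (without high 1). At the high dose CDKN2A turned to 0.00 with the block over 8 arrays and -0.05 without control 2, and CDKN1B to -0.06, 0.00 and -0.13 without control 1, control 2 and high 1. Over all fits without 1 array the highest CDKN1B value at the high dose was 0.21 (without high 2), the lowest CDKN2D value -0.16 (without control 1), and the highest CDKN2D value of high against low 0.09 (without high 2). The causes were not tested.

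Calls over all genes at the low dose, 264 higher and 400 lower, numbered 266 to 658 in total without single arrays and 2055 with array weights. At the high dose, 180 in total, they numbered 19 to 990 without single arrays and 46 to 2683 otherwise. The table holds no background measure, which limits what the dim CDKN2A and CDKN2B rows can show.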
